A study of Caenorhabditis elegans with 2 samples.

Results

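The trehalose metabolism genes of Caenorhabditis elegans comprise 8 of the 19973 protein-coding genes on the nuclear chromosomes: the synthase genes tps-1 and tps-2, the phosphatase gene gob-1, and the trehalase genes tre-1 to tre-5. All were found by symbol in the Ensembl annotation of genome build WBcel235 (ce11). Their peaks are those of the forkhead transcription factor FKH-2 whose peak point, the base that marks the middle of a peak, lay inside the gene or within 5 kb of it. The 8 genes were named by function, but the family was chosen by looking at the tre-2 peaks in the authors' most stringent list, the set kept by irreproducible discovery rate (IDR), so every count and score is given as a description, with no test.

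FKH-2 was mapped by chromatin immunoprecipitation and sequencing in whole L3 larvae of mixed sex and unstated age. The strain, OP185, has the genotype unc-119(ed3) III; wgIs185, the latter being a transgene with eGFP-tagged fkh-2. There were 2 biological replicates of this 1 group, and no other genotype, stage or control library was analysed here. The promoter and tissues that drive the transgene were not stated, the labels name no mutation of the endogenous fkh-2, and the antibody was labelled only as fkh-2. Because whole animals were used, strong binding in few cells and weak binding in many cannot be told apart.

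Trehalose is a nonreducing disaccharide of glucose that nematodes use as an energy store and as a protectant against drying, cold and osmotic stress. Trehalose phosphate synthase joins glucose from UDP-glucose to glucose phosphate, a phosphatase then removes the phosphate, and trehalases split the finished sugar back into glucose. In the worm the pathway is known for its activity in dauer larvae and in animals with reduced insulin signalling. Forkhead proteins bind DNA through a winged-helix domain, and a core of A or G followed by TAAACA is the classical forkhead site.

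The 3 member peaks of the IDR set carry the main result. The IDR method is meant to keep peaks whose ranks repeat between replicates, but a place in this set does not show that for each peak. The whole 290-base sequences of the 3 peaks are shown along the coding strand of each gene, 5′ to 3′, in ce11. A further pair of 101-base windows, 50 bases to either side of the peak point, shows the strongest gob-1 peak and the tre-3 peak whose point falls on a forkhead core. Capitals mark any match, on either strand, to ATAAACA or GTAAACA, to the looser forkhead core RYAAAYA (A or G, then C or T, then AAA, then C or T, then A), to GAGAGA or to CACGTG.
tre-2 IDR peak near the inner starts, chrIV:6878973-6879262, minus strand: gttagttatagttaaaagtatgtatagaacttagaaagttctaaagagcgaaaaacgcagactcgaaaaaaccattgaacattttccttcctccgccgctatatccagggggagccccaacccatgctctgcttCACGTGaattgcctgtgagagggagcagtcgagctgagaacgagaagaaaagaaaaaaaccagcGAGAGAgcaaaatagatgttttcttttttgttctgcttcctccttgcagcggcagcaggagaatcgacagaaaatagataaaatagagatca
tre-2 IDR peak in the long intron, chrIV:6881211-6881500, minus strand: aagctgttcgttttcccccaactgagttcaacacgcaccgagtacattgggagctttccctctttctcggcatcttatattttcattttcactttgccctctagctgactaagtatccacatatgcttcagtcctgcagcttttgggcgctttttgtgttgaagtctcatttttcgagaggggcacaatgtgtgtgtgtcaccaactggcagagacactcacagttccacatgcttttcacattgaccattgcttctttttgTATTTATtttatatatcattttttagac
tps-2 IDR peak upstream of the gene, chrII:14598419-14598708, plus strand: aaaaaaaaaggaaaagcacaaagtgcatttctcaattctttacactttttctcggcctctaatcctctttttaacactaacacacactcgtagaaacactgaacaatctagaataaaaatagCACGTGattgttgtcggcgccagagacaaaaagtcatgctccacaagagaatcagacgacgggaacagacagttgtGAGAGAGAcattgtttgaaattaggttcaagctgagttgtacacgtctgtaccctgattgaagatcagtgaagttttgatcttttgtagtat
gob-1 first-intron window, chrX:15493782-15493882, plus strand: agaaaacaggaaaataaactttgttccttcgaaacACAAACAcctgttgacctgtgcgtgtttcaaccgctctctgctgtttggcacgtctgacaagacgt
tre-3 intron window, chrV:11710275-11710375, minus strand: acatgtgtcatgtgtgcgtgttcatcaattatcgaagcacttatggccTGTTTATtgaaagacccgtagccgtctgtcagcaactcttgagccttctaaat

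The deposited lists held 203 peaks in the IDR set, 30000 in the pooled list, 30000 in replicate 1 and 24744 in replicate 2. The score of a peak is the signal value deposited by the authors, on a scale they did not state, and ranks count from 1 at the highest score of a list. Scores ran from 22.2 to 85.4 in the IDR set, and the median was 6.19 in the pooled list, 4.22 in replicate 1 and 3.31 in replicate 2. The 3 member peaks of the IDR set held the same ranks, 53, 150 and 171, in that set and in the pooled list. The set also held a peak in the gene lin-14 that overlapped no peak of replicate 2. The authors named the pooled list and both replicate lists as peaks and background for input to IDR. A region called a peak of these lists is therefore not always called binding. The pooled list and those of replicates 1 and 2 reached q-values of 0.541, 0.356 and 0.0502, so the first 2 hold many weak regions. Read numbers are not part of the lists, so depth was unknown, and scores are compared only within a list.

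FKH-2 peaks of the IDR set lay at 1 gene of synthesis, tps-2, and at 1 gene of breakdown, tre-2, that is at 2 of the 8 genes. Among all protein-coding genes 2.66% had such a peak by the same rule. Every one of the 8 genes had weaker peaks, from 4 to 8 in the pooled list, but so did 96.1% of all genes, and the corresponding shares were 96.4% in replicate 1 and 94.5% in replicate 2. The 46 pooled peaks at the family came to a median of 6 per gene, or 0.359 per kb of gene and flank, against medians of 4 and 0.287 over all protein-coding genes. The median of the strongest pooled score was 10.5 for the 8 genes and 8.86 for all genes with a peak.

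**Figure D1:**
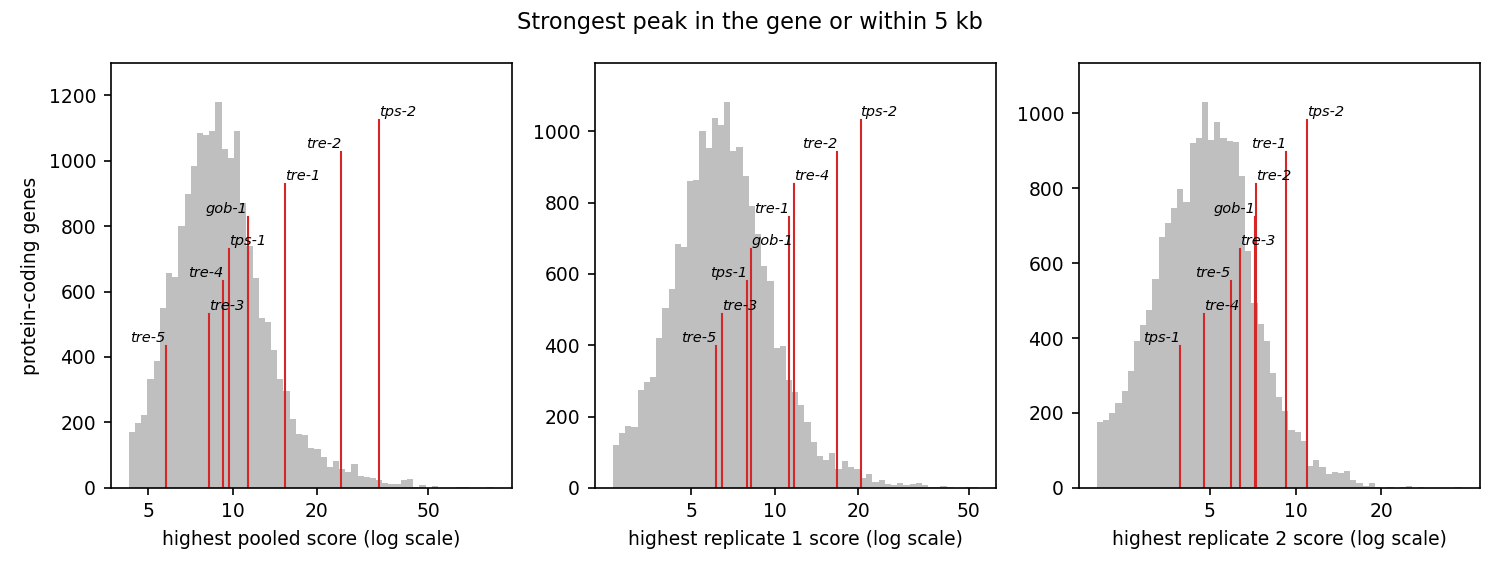
Histograms of the highest peak score in the gene or within 5 kb of it (x axis, log scale) over all protein-coding genes with a peak (y axis, number of genes), for the pooled list and each replicate; red lines mark the 8 trehalose genes and their heights serve only to separate the names. tps-2 is the highest of the 8 in all 3 lists, whereas tre-2 is next in the pooled list and in replicate 1 and is overtaken by tre-1 in replicate 2.

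The synthase gene tps-2 (WBGene00006603, chromosome II, 14600902 to 14610554, plus strand) had the strongest peak of the family, in the intergenic stretch upstream of it. The peak point, at 14598564, lay 2338 bp upstream of the first annotated base of the gene and 907 bp beyond the end of catp-4, a cation-transporting ATPase gene on the same strand. Its score was 33.4 in the pooled list (rank 53), 20.4 in replicate 1 (rank 75) and 10.96 in replicate 2 (rank 158). Both replicates thus ranked this peak within their 203 strongest. The strongest score at tps-2 was higher than that of 99.3% of all protein-coding genes in the pooled list, 99.0% in replicate 1 and 97.9% in replicate 2. Of the 8 genes, tps-2 alone had peaks among the 203 strongest of each replicate, as did 0.836% of all protein-coding genes. By replicate, 2.73% of all genes had one in replicate 1 and 2.70% in replicate 2. Because the peak stood more than 2 kb from the gene, a flank of 2 kb left tps-2 without an IDR peak.

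Inside tps-2 the peaks were weaker and were not shared by both replicates. The strongest of them, at 14607478 with a pooled score of 10.6 (rank 2820), lay in the 4243 bp intron 7 of the long transcript and inside arl-3, an ADP-ribosylation factor-like GTPase gene nested there. It overlapped a replicate 2 peak of rank 2059 and none of replicate 1. A peak 445 bp into the gene had a pooled score of 7.89 and likewise met only a replicate 2 peak, of rank 9854. The short transcript of tps-2 starts at 14609299, and the pooled peak nearest to that start, 1696 bp beyond it and 441 bp past the end of the gene, scored 8.15 and met a replicate 1 peak of rank 3532.

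The other synthase gene, tps-1 (WBGene00006602, chromosome X, 17467121 to 17474534, minus strand), had 7 pooled peaks and none of high rank. Its strongest, at 17469240 in a coding exon 5294 bp into the gene, scored 9.72 (rank 3994) and overlapped peaks of rank 8218 in replicate 1 and 9602 in replicate 2. The strongest tps-1 score was above that of 61.6% of all genes in the pooled list, 72.0% in replicate 1 and 34.3% in replicate 2. A second exonic peak, at 17472482, scored 9.52 and met a replicate 1 peak of rank 4950 but no replicate 2 peak. At the start of the longer transcript replicate 1 alone listed a peak, 146 bp upstream with a score of 2.67 (rank 29306). The nearest IDR peak stood 536 kb away.

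The phosphatase gene gob-1 (WBGene00001649, chromosome X, 15493602 to 15497504, plus strand), whose loss blocks the gut and kills larvae, had the most pooled peaks of the family, 8. The strongest lay in its 751 bp first intron, 230 bp downstream of the start, with a pooled score of 11.3 (rank 2200). Replicate 2 listed it at 6.77 (rank 1493), and replicate 1 listed no peak there. The 4 pooled peaks upstream of the gene showed the reverse, each meeting a peak of replicate 1 but none of replicate 2, with replicate 1 ranks of 9361 to 18344. The 1 pooled peak at gob-1 found in both replicates, 231 bp past the gene and 180 bp inside suox-1, the sulfite oxidase gene, ranked 1127 in replicate 2 and 26860 in replicate 1. The strongest score at gob-1 was above that of 76.4% of all genes in the pooled list, 75.2% in replicate 1 and 87.0% in replicate 2.

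The trehalase gene tre-2 (WBGene00006608, chromosome IV, 6876731 to 6883442, minus strand) held 2 IDR peaks inside its 6712 bp. Genes with 2 such peaks inside them made up 0.0200% of all genes, that is 4 genes, and none held more. The annotation gives tre-2 transcripts with 3 starts: the longest starts at 6883442, the others at 6879374 and 6878877. Each of these starts is the first base of the annotated start codon, so distances from them are not to a mapped transcription start. One peak point, at 6881356, lay in the 3368 bp intron 2 of the longest transcript, 2086 bp downstream of the first start and 1982 bp upstream of the second. The other, at 6879118, lay in a 356 bp intron between the inner starts, 256 bp downstream of the second and 241 bp upstream of the third. No pooled peak lay within 500 bp of the first start, where replicate 2 alone listed a peak 282 bp downstream with a score of 2.96 (rank 14931).

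Both tre-2 peaks ranked higher in replicate 1 than in replicate 2. The peak in the long intron scored 24.4 in the pooled list (rank 150), 16.8 in replicate 1 (rank 155) and 7.24 in replicate 2 (rank 1112). The peak near the inner starts scored 23.3 in the pooled list (rank 171), 16.1 in replicate 1 (rank 182) and 5.42 in replicate 2 (rank 3602). Both were therefore among the 203 strongest peaks of replicate 1 and neither was among those of replicate 2, so that with replicate 2 alone tps-2 was the 1 family member left in that class. The strongest tre-2 score was above that of 98.0% of all genes in the pooled list and 97.9% in replicate 1, but 87.1% in replicate 2. The peak in the long intron also overlapped T05A12.7, a noncoding RNA gene of the opposite strand at 6881228 to 6881359, and which of these transcripts the peak belongs to was not tested. The other 4 pooled peaks at tre-2 scored 4.48 to 8.20, and none of them overlapped a replicate 2 peak.

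**Figure D2:**
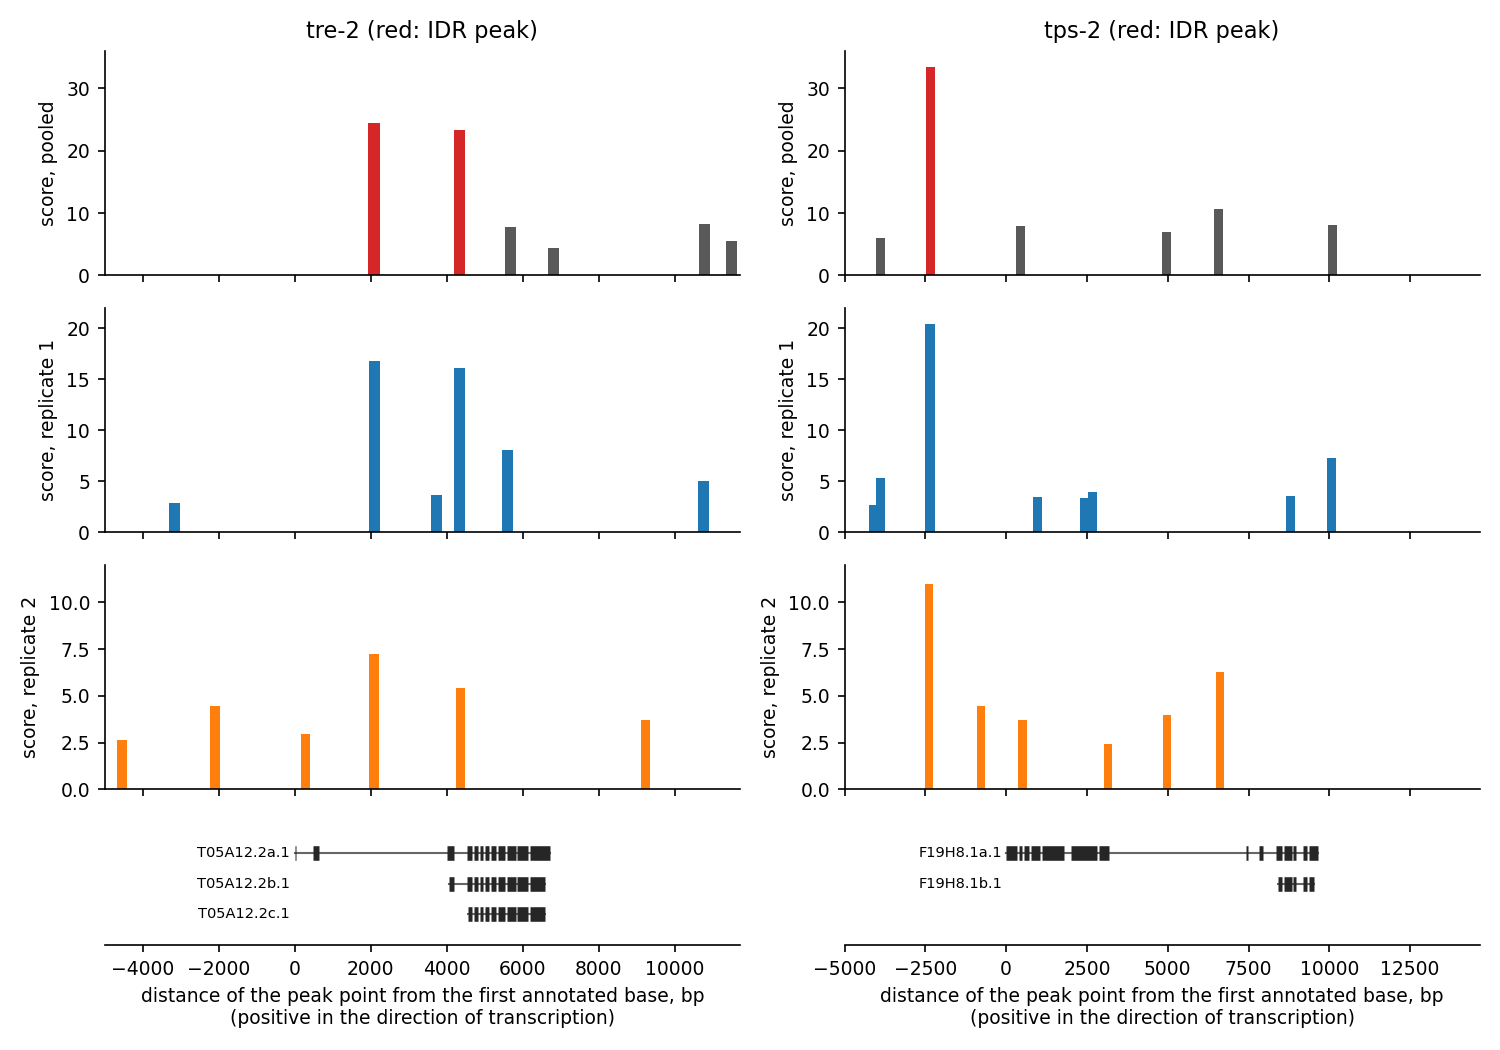
Scores of the peaks (y axes) in the pooled list, replicate 1 and replicate 2 at tre-2 (left) and tps-2 (right), against the distance of the peak point from the first annotated base in bp (x axis, positive in the direction of transcription); bars are as wide as the peaks, red bars are IDR peaks, and the bottom row draws the exons of each transcript. The tre-2 peaks stand in introns of the longest transcript at 24.4 and 23.3, and the tps-2 peak of 33.4 stands 2338 bp ahead of the gene.

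The trehalase gene tre-1 (WBGene00006607, chromosome I, 6554729 to 6558665, plus strand) had the highest pooled score among the 6 genes without an IDR peak, though in replicate 1 tre-4 had a higher one (11.8). The peak point lay 33 bp upstream of the gene start and beside the noncoding RNA gene F57B10.17. It scored 15.4 in the pooled list (rank 678), 9.28 in replicate 2 (rank 354) and 7.74 in replicate 1 (rank 2895). In contrast to the tre-2 peaks, this start-site peak ranked higher in replicate 2 than in replicate 1, and its pooled score was above the strongest of 91.8% of all genes. The replicate peaks share 89 bp, and the pooled peak did not overlap both replicates when at least 0.5 of each peak, or the pooled point, had to be covered. A second peak, 3892 bp past the gene with a score of 14.2 (rank 923), lay 142 bp upstream of tmed-3, a gene of the p24 secretory cargo family, and met a replicate 1 peak of rank 678 but no replicate 2 peak. No pooled peak point fell inside the gene itself, which was true of tre-1 alone among the 8 genes.

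The trehalase gene tre-4 (WBGene00006610, chromosome X, 13472155 to 13475926, plus strand) also had its strongest peak at its start, 234 bp inside the gene in a coding exon. The pooled score of 9.24 (rank 4761) was above that of 56.5% of all genes, and the shares were 92.8% in replicate 1 and 51.2% in replicate 2. Replicate 1 placed the peak 56 bp from the start with a score of 11.8 (rank 572), and replicate 2 placed it 313 bp from the start with a score of 4.77 (rank 5358). The peaks of the replicates share 13 bp, and this match too was lost under both stricter rules. The remaining 3 pooled peaks of tre-4 scored 5.90 to 7.46 and lay nearer to the starts of col-183, a collagen gene, and efn-3, an ephrin gene.

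The trehalase genes tre-3 and tre-5 had the lowest strongest scores of the family in the pooled list and in replicate 1, whereas in replicate 2 the lowest were those of tps-1 and tre-4. At tre-3 (WBGene00006609, chromosome V, 11709769 to 11715903, minus strand) the strongest pooled peak scored 8.25 (rank 6903), above that of 44.0% of all genes, and lay 4776 bp past the gene inside ceh-32, a SIX-class homeobox gene. The strongest tre-3 score was above that of 52.7% of all genes in replicate 1 and 78.4% in replicate 2. Closer to tre-3, a peak 181 bp upstream of its inner start at 11712549 scored 6.60 and met a peak of replicate 1 (rank 8531), and an intronic peak at 11710325 scored 7.51 and met a peak of replicate 2 (rank 4830). At tre-5 (WBGene00006611, chromosome II, 52997 to 55304, minus strand) the strongest pooled peak scored 5.77 (rank 17690), above that of 13.0% of all genes, and lay inside C23H3.5. In the replicates the strongest tre-5 score was above that of 47.5% (replicate 1) and 71.9% (replicate 2) of all genes. The tre-5 gene overlaps sptl-1, a serine palmitoyltransferase gene. Its one peak near its own start, 491 bp inside, scored 4.44 in the pooled list and 5.77 in replicate 2 (rank 2892), with no peak in replicate 1.

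**Figure D3:**
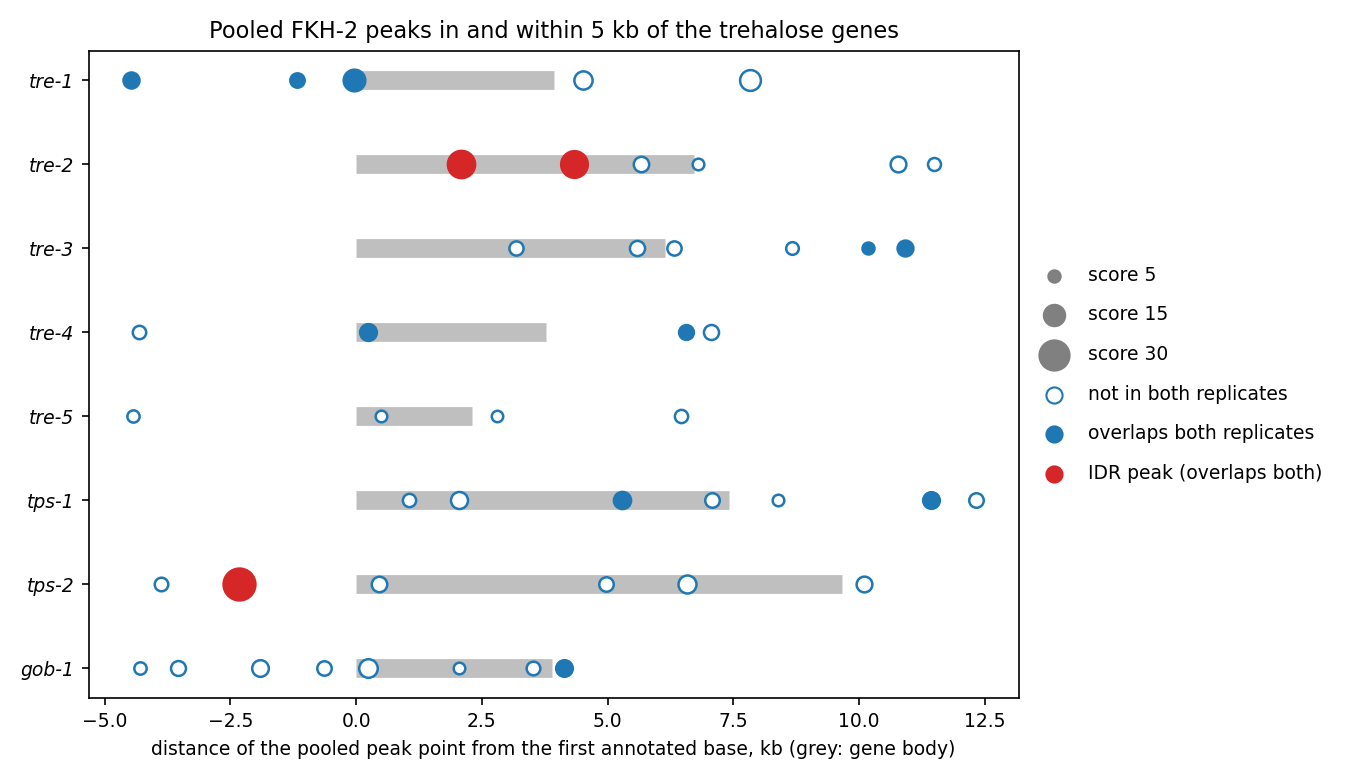
Pooled peak points at the 8 genes (rows) by distance from the first annotated base in kb (x axis); the area of a circle is proportional to its score, grey bars are gene bodies, filled circles overlap a peak of both replicates and red circles are IDR peaks. Of the 46 peaks, 13 are filled, and the 3 red circles are 2 inside tre-2 and 1 upstream of tps-2.

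Across the family, 13 of the 46 pooled peaks (28.3%) overlapped a peak of both replicates by at least 1 bp, against 17.5% of all pooled peaks. A further 16 overlapped replicate 1 alone, 11 replicate 2 alone and 6 neither, beside 40.55%, 23.03% and 18.9% of all pooled peaks. The 13 lay at tre-1 (3), tre-2, tre-3, tre-4 and tps-1 (2 each), tps-2 and gob-1 (1 each), and tre-5 had none. Since the 3 IDR peaks are among the 13 and the family was chosen by looking at those of tre-2, the share is a description only. Under the stricter overlap rules 9 of the 13 were left, and the start peaks of tre-1 and tre-4 were among those lost. Also lost was the tps-1 peak at 17463092, where the peaks of the 2 replicates share 0 bp with each other. Outside the IDR peaks, the start peak of tre-1 had the highest rank in replicate 2 (354) and that of tre-4 the highest in replicate 1 (572).

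**Figure D4:**
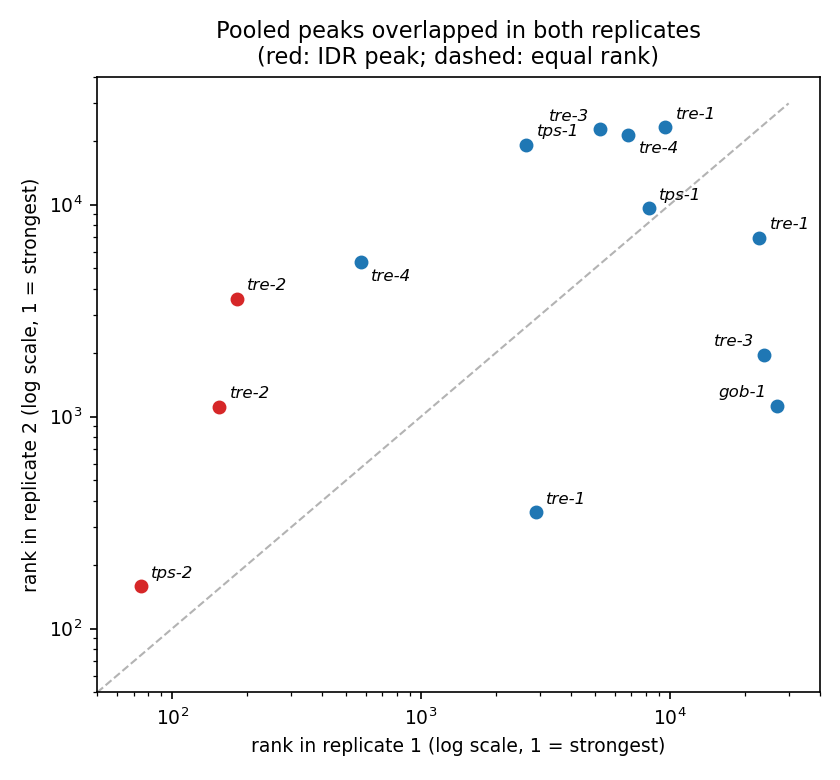
Rank in replicate 1 (x axis, log scale) against rank in replicate 2 (y axis, log scale) of the 13 pooled peaks that overlapped a peak of both replicates; 1 is the strongest peak of a list, red points are IDR peaks and the dashed line marks equal rank. The tps-2 peak, at 75 and 158, is the nearest to the lower left corner, the tre-2 peaks lie above the line and the tre-1 start peak lies below it.

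By position, 11 of the 46 pooled peaks lay upstream of the gene, 7 in introns, 8 in coding exons, 2 in noncoding parts of exons and 18 downstream. Of the 46, 8 were within 500 bp of a start of the same gene. Positions were not counted over all pooled peaks, so these counts have no share to be set against. A member held the nearest protein-coding start for 18 peaks, among them all 3 IDR peaks, and 20 peak points lay inside another protein-coding gene, so most of the weaker peaks cannot be assigned to trehalose genes by position. The limit of 5 kb mattered most at tps-1, where the last peak inside stood 4923 bp from the gene with a score of 6.93 and the first outside stood 5196 bp away with a score of 12.7 (rank 1405). At the other 7 genes the first peaks outside scored 4.37 to 8.60. For the 6 genes without an IDR peak, the nearest one stood 140 kb (gob-1), 187 kb (tre-1), 225 kb (tre-4), 356 kb (tre-5), 536 kb (tps-1) and 812 kb (tre-3) away.

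The 3 IDR peaks of the family had no forkhead core within 50 bp of their points. ATAAACA or GTAAACA occurred within 50 bp of the point in 2 of the 46 pooled peaks of the family, in 4.15% of all pooled peaks and in 15.3% of the IDR set. The 2 matches were in weak peaks, that of the tre-3 intron printed above and one 4313 bp upstream of tre-4, which lay 78 bp upstream of col-183 and scored 5.90. The looser core RYAAAYA, which includes the strict one, occurred in 11 family peaks (all pooled 16.9%, IDR set 29.6%), among them the tre-1 peak beside tmed-3 (score 14.2) and the gob-1 intron peak, where ACAAACA ends 9 bp before the point. Over the whole length of the 3 IDR peaks, the long-intron peak of tre-2 had 1 looser match, TATTTAT, 118 bp from the point. Over whole peaks the looser core occurred in 49.3% of the IDR set and in 41.1% of all pooled peaks.

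The same 3 peaks differed in the other short sequences. GAGAGA was found within 50 bp of the point in 38.4% of the IDR set and in 8.25% of all pooled peaks. It stood just outside that window at 54 bp in the tre-2 peak near the inner starts and at 53 bp in the tps-2 peak. Within 100 bp of the point it occurred in 52.7% of the IDR set and in 15.1% of all pooled peaks. CACGTG, the palindromic E-box core that basic helix-loop-helix factors bind, was chosen for counting after these sequences had been read. It stood 5 bp from the point in the tre-2 peak near the inner starts and 18 bp from the point in the tps-2 peak. These were the only 2 of the 46 family peaks with CACGTG within 50 bp, beside 2.01% of all pooled peaks and 4.93% of the IDR set. G and C made up 42.4% of the tre-2 peak near the inner starts, 41.7% of that in the long intron and 38.3% of the tps-2 peak, against medians of 43.4% in the IDR set and 37.2% in the pooled list.

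Among genes that border the pathway, IDR peaks were found at 3 of 24 genes of glucose, glycogen and linked carbon metabolism. The share over all protein-coding genes was 2.66%, and the list was chosen with earlier results of these data known. The highest scores were those of oga-1, which encodes the enzyme that removes O-linked N-acetylglucosamine from proteins (34.6, rank 47, 378 bp upstream of its start), and of aagr-3, an acid alpha-glucosidase-related gene (33.8, rank 50). The aagr-3 peak lay 1737 bp upstream of that gene and 121 bp upstream of drap-1, a transcriptional corepressor gene. Another was in an intron of pck-2, a phosphoenolpyruvate carboxykinase gene (23.3, rank 172), where the nearest start was that of R11A5.6. The next highest was agl-1, the glycogen debranching enzyme gene, with a pooled score of 16.3, and the median of the strongest score over the 24 genes was 11.2.

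Of 19 regulators known to act on trehalose or dauer metabolism, hlh-30, which encodes a TFEB-like basic helix-loop-helix factor, was the 1 gene with an IDR peak. Such a peak lay at 2.66% of all protein-coding genes. The hlh-30 peak, in an intron, scored 27.6 (rank 95) and ranked 116 in replicate 1 but 17446 in replicate 2. The next highest pooled scores were 20.4 for both akt-2, an insulin pathway kinase gene, and skn-1, a stress response factor gene, and 20.1 for daf-4, a TGF-beta receptor gene. The median over the 19 genes was 13.8. Some of these genes are long: daf-2, daf-12 and daf-16 have 14 to 24 pooled peaks each, against 4 to 8 at the trehalose genes. Their strongest scores were 12.2, 11.9 and 16.9, whereas akt-2 reached 20.4 with 4 pooled peaks. Whether the number of peaks bears on the strongest score was not tested.

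**Figure D5:**
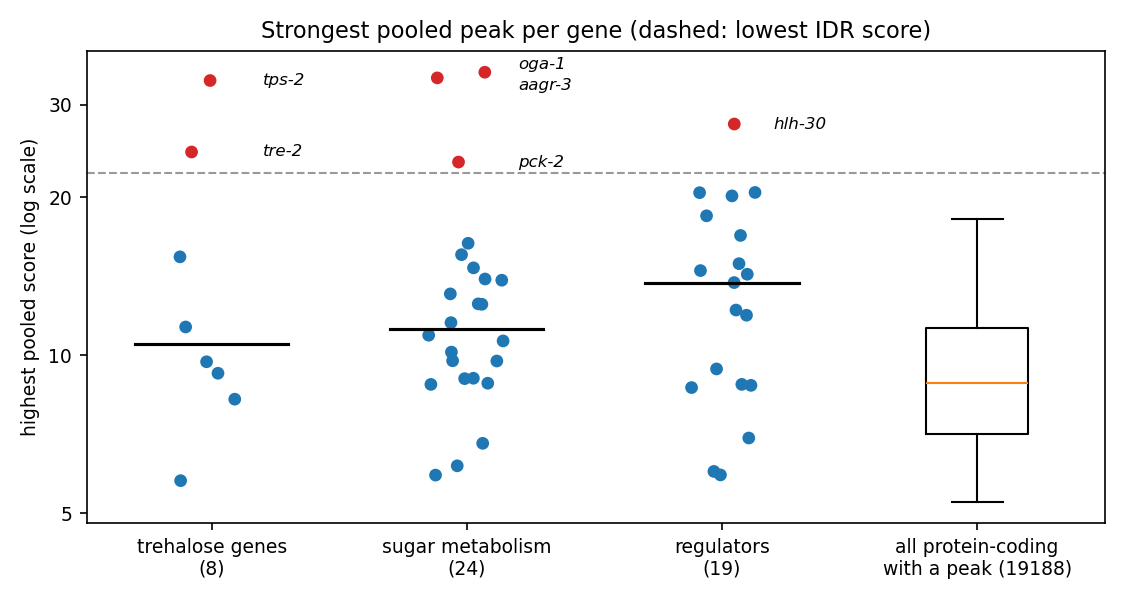
Highest pooled score in each gene or within 5 kb of it (y axis, log scale) for the 8 trehalose genes, 24 genes of sugar metabolism and 19 regulators; points are genes, black lines are medians, red points reach the lowest IDR score of 22.2 (dashed), and the box shows the quartiles of all 19188 protein-coding genes with a peak, with whiskers at the 5th and 95th percentiles. The medians are 10.5, 11.2 and 13.8, beside 8.86 for all genes.

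The genes most like tre-2 in number of IDR peak points inside the gene were fkh-7, which encodes another forkhead factor, ppfr-1, a protein phosphatase regulatory subunit gene, and lin-14, a heterochronic transcription factor gene, with 2 each. The summed scores of the pairs were 86.9 for fkh-7, 49.7 for ppfr-1 and 47.5 for lin-14. These genes span 25695, 25884 and 20312 bp, and tre-2, at 6712 bp, was thus the shortest of the 4. Next in order came mom-1, a Wnt pathway gene, and Y41G9A.17, with 1 peak each of 52.3 and 44.4. In replicate 2 the weaker peaks of fkh-7 and ppfr-1 ranked 3624 and 5015, and 1 lin-14 peak overlapped none, so weaker ranks in replicate 2 were not confined to tre-2. The stronger peaks of fkh-7 and ppfr-1 instead ranked higher in replicate 2 (3 and 381) than in replicate 1 (13 and 838). The other lin-14 peak ranked 331 in replicate 1 and 892 in replicate 2.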

How the data were processed

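FKH-2 peaks in whole L3 larvae were read from the authors' deposited narrowPeak lists for ce11: 1 list per biological replicate, 1 for both replicates pooled and 1 IDR set. The text files deposited beside them state that peaks were called from alignments against a control, and that the IDR set came from the other lists. The aligner, caller, versions and IDR threshold are not given in the sources used here. The score is the deposited signal value per peak, of unstated scale, used only to rank and describe within a list. The deposited −log10 q-values served 1 alternative. All 203 IDR peaks carried the same score in the pooled list.

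Peaks were placed by their point against Ensembl release 115 genes, and sequence came from the RefSeq genome of the same build, in which 13 of 13 annotated start codons of the 8 genes read ATG. A start is the first annotated base of a transcript. It is also the first base of the start codon for tre-2, tre-4, tre-5 and the shorter tps-1, tps-2 and tre-3 transcripts. Transcription may begin elsewhere at these. A promoter peak lay within 500 bp of a start, and motif searches read both strands in the 50 bp to either side of a point. Where a score was ranked against all 19973 genes, genes with no peak counted as lower. Of 25 sugar metabolism symbols 24 matched (fgt-1 did not), and all 19 regulator symbols matched. Named genes were the 8 members, the genes of each list with an IDR peak, up to the 4 highest of each list, up to 5 genes with the most IDR peaks inside, and the neighbours of the strongest peaks; daf-2, daf-12 and daf-16 were added after their values were seen. The members, lists and motifs were chosen with earlier results of these data known. With 1 group there was no comparison between conditions and no p-value. Alternatives were other flanks, stricter and looser peak sets, either replicate alone, other overlaps and windows. The ce10 lists were not used here. Overlap and territory counts were checked on planted peaks. Python 3.11.15, numpy 2.4.6, pandas 2.3.3 and matplotlib 3.10.9 were used.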

Additional observations from a re-analysis of the deposited data

How the results depend on the processing

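The 2 family genes with an IDR peak became 1 with a 2 kb flank (tre-2), with the gene body alone (tre-2) and with the stronger part of the IDR set (tps-2), and were 1 to 2 with either replicate alone. Their 3 IDR peaks became 1 with the stronger part and 5 with the 1000 strongest pooled peaks, which added both tre-1 peaks, and were 1 to 3 with either replicate alone. Over all genes, 532 with an IDR peak became 299 with 2 kb, 916 with 10 kb, 46 with the body alone, 275 with the stronger part and 2376 with the 1000 strongest (539 to 546 with either replicate alone). The 3 sugar metabolism genes became 1 with the body alone and 7 with the 1000 strongest (2 with either replicate alone). The 46 pooled peaks became 28 with 2 kb, 70 with 10 kb, 17 with the body alone, 18 at a q-value of at most 0.05 and, chosen after seeing the data, 18 when the nearest start had to be the member's (41 to 48 with either replicate alone). With the body alone 1 gene had no pooled peak. Over whole peaks the strict forkhead core rose from 2 to 4 peaks, the looser from 11 to 22, GAGAGA from 6 to 13 and CACGTG from 2 to 4. The whole-peak shares were 8.70%, 47.8%, 28.3% and 8.70% of the family peaks, beside 10.6%, 41.1%, 20.2% and 5.65% of all pooled peaks. Apart from the single-replicate settings, the changes follow from the fewer or more peaks and bases that each setting admits. For the IDR counts each single-replicate set held 203 peaks like the IDR set, and there the loss of tre-2 goes with its ranks in replicate 2 (1112 and 3602). Peaks overlapped in both replicates fell from 13 to 9 under both stricter overlaps. No paired analysis was possible because there is 1 group. The depth was unknown, and 2 replicates give no interval for a peak.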
